A study of Homo sapiens with 15 samples.

Results

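The genes described here are 38 genes of glucose breakdown and of the response to hypoxia-inducible factor 1 (HIF1). They comprise the glucose transporters, the 17 enzymes from hexokinase to lactate dehydrogenase, the lactate carriers, the pyruvate dehydrogenase kinases, the PFKFB enzymes, 11 HIF1 targets outside glycolysis and HIF1A itself. They were listed by name, and their array probes were found through the RefSeq accession printed for each probe. A probe was found for 37 of the 38 genes, and all 37 were among the 26825 features tested. ALDOA, which encodes an aldolase, had no probe whose accession matched and was not analysed here.

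The samples were cultures of A2058, an established human malignant melanoma line, exposed for 8 h to one of 3 compounds or to a vehicle, and total RNA of each was hybridised to a one-colour 60-mer oligonucleotide array. The 5 groups of 3 arrays were DMSO, NP at 3 µM, W (water), MET (metformin) at 5 mM and PHEN (phenformin) at 50 µM. NP was dissolved in DMSO and the biguanides in water, so NP was compared with DMSO and each biguanide with W. The labels call the first compound NP and the series title neopetasin, whereas the methods give petasin at that dose and time, and it is called NP here. The labels give 3 independent experiments, and all results are from 1 cell line at 1 time.

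Glycolysis turns glucose into pyruvate in the cytosol, and lactate dehydrogenase turns pyruvate into lactate, which regenerates the NAD that glycolysis needs. Biguanides are known to inhibit complex I of the respiratory chain, and cells whose respiration is blocked draw more of their ATP from glycolysis. This can happen through the activity of existing enzymes or through new transcription. HIF1 is the textbook transcription factor for these genes: its alpha subunit, encoded by HIF1A, is hydroxylated by the EGLN enzymes and degraded in the presence of oxygen, and when it is stable it binds hypoxia response elements with the core letters ACGTG or GCGTG and raises most glycolytic genes together with targets such as VEGFA, CA9 and BNIP3. HIF1 is controlled mainly through the stability of its protein, which arrays do not measure. The comparisons below asked whether the transcripts of this pathway changed under each compound, and whether the enzymes moved with the other HIF1 targets.

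The letters ACGTG and GCGTG were looked for on both strands in the 250 bases before the transcription start of each member, with RefSeq promoters of GRCh38.p14. CACGTG reads ACGTG on both strands and therefore counts as 2 overlapping matches. Of the 38 members, 32 had a promoter entry, and 27 of these 32 had at least 1 match at 1 of their starts (14 of 17 enzymes and 7 of 8 other HIF1 targets), compared with 47.4% of all 27305 genes with an entry. No entry was found for VEGFA, BNIP3L, NDRG1, SLC2A3, SLC16A1 and PFKFB2. Some genes have several starts. Counted by start, 36 of the members' 60 entries had a match, as did 43.2% of all 35116 entries. The stretches before LDHA (chr11:18394313-18394562, plus strand), PGK1 (chrX:78103998-78104247, plus strand) and ENO1 (chr1:8878687-8878936, minus strand) are shown as examples. They are enzyme genes with several matches whose transcripts are given below. Others of that kind, such as HK2 and ALDOC, are not printed, nor is a second start of LDHA with 1 match. Each stretch shown is printed 5′ to 3′ in the direction of the gene, with the matches in capitals. A match describes letters in a window and does not show binding.
LDHA: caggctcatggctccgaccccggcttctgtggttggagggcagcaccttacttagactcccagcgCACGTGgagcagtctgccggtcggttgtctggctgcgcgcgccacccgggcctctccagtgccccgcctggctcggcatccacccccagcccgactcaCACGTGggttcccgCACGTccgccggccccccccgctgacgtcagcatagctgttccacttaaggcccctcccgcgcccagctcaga
PGK1: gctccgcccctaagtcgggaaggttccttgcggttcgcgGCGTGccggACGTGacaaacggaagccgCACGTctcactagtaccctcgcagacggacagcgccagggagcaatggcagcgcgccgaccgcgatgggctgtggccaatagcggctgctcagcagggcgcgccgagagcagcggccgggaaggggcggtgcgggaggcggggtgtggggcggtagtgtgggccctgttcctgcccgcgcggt
ENO1: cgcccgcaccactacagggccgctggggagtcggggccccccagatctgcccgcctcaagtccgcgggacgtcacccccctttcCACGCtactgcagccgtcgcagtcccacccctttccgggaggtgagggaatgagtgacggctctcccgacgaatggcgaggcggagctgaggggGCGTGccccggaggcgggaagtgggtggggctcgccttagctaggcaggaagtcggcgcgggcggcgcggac

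Levels are given as log2 signal minus the 75th percentile of the same array, so that 0 is the level of the array's upper-quartile probe, and differences between groups are log2 fold changes from limma with its standard error (SE). A gene was counted as changed at 1.5-fold or more (0.58 on the log2 scale) and an adjusted p of at most 0.05 over all 26825 features. On each of the 15 arrays 35 of the 37 genes stood well above background. The exceptions were CA9 on 9 arrays and EGLN3, which encodes an oxygen-sensing prolyl hydroxylase, on 10. The enzymes were among the brightest features of these arrays, with a median at the 97.1th percentile of mean level. Between 25803 and 45042 of 58201 probes were well above background on an array, and the highest counts were on W replicate 1 with 45042 and MET replicate 1 with 44449. Of 9 melanocyte-lineage markers such as SOX10 and MITF, 8 were well above background on every array. Of the markers of other cell types, so were 2 of 5 for keratinocytes (KRT10 and KRT14), 2 of 5 for fibroblasts (COL1A1 and PDGFRB), 2 of 5 for leukocytes (4 had a probe) and 4 of 4 for endothelium, while KRT1, KRT5, CDH1, COL1A2 and COL3A1 were on no array. Their levels were far apart. Summed on the linear scale over the tested markers of a type, an array had 212 to 284 for melanocytes and 114 to 163 for keratinocytes, nearly all from KRT10. The sums were 1.19 to 1.72 for fibroblasts, 0.577 to 1.09 for leukocytes and 1.05 to 1.74 for endothelium. DMSO and NP arrays shared 2 slides and W, MET and PHEN arrays another 2, with each treated array on the slide of its own vehicle array.

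None of the 37 genes was changed by NP, by MET or by PHEN under the threshold in the main fit, which used group and replicate number. With NP, 0.0373% of all features had risen and 0% had fallen. With MET, 0% had passed it in either direction, and with PHEN 0.0224% had risen and 0.00373% had fallen. In the fits that model the slide or the replicate number within a vehicle set, VEGFA passed with NP and with PHEN, as given below. At an unadjusted limma p of at most 0.05 1 member was higher with NP (VEGFA; 2.8% of all features) and 0 lower (1.88%). With MET 2 were higher (PKM and VEGFA; 1.38%) and 0 lower (1.07%), and with PHEN 2 were higher (HK2 and VEGFA; 0.816%) and 1 lower (EGLN3; 1.54%). EGLN3 was kept by the filter on dim probes through its W and MET arrays, which favours a fall from W. The methods' paired t-test, run with Benjamini-Hochberg adjustment, gave 0 in each comparison, for the members and for all features alike. It could therefore not tell the members from the rest. Its results at an unadjusted p are given at the end. The 95% interval of the fold change, not adjusted for the number of genes, lay inside 1.5-fold in both directions for 31 of 37 genes with NP, for 32 with MET and for 30 with PHEN. Among the 16 enzymes tested it did so for 14 in each comparison, the exceptions being PFKL (SE 0.54) and ALDOC (SE 0.24). MET and PHEN were compared with the same 3 W arrays, so their values are not independent.

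**Figure D1:**
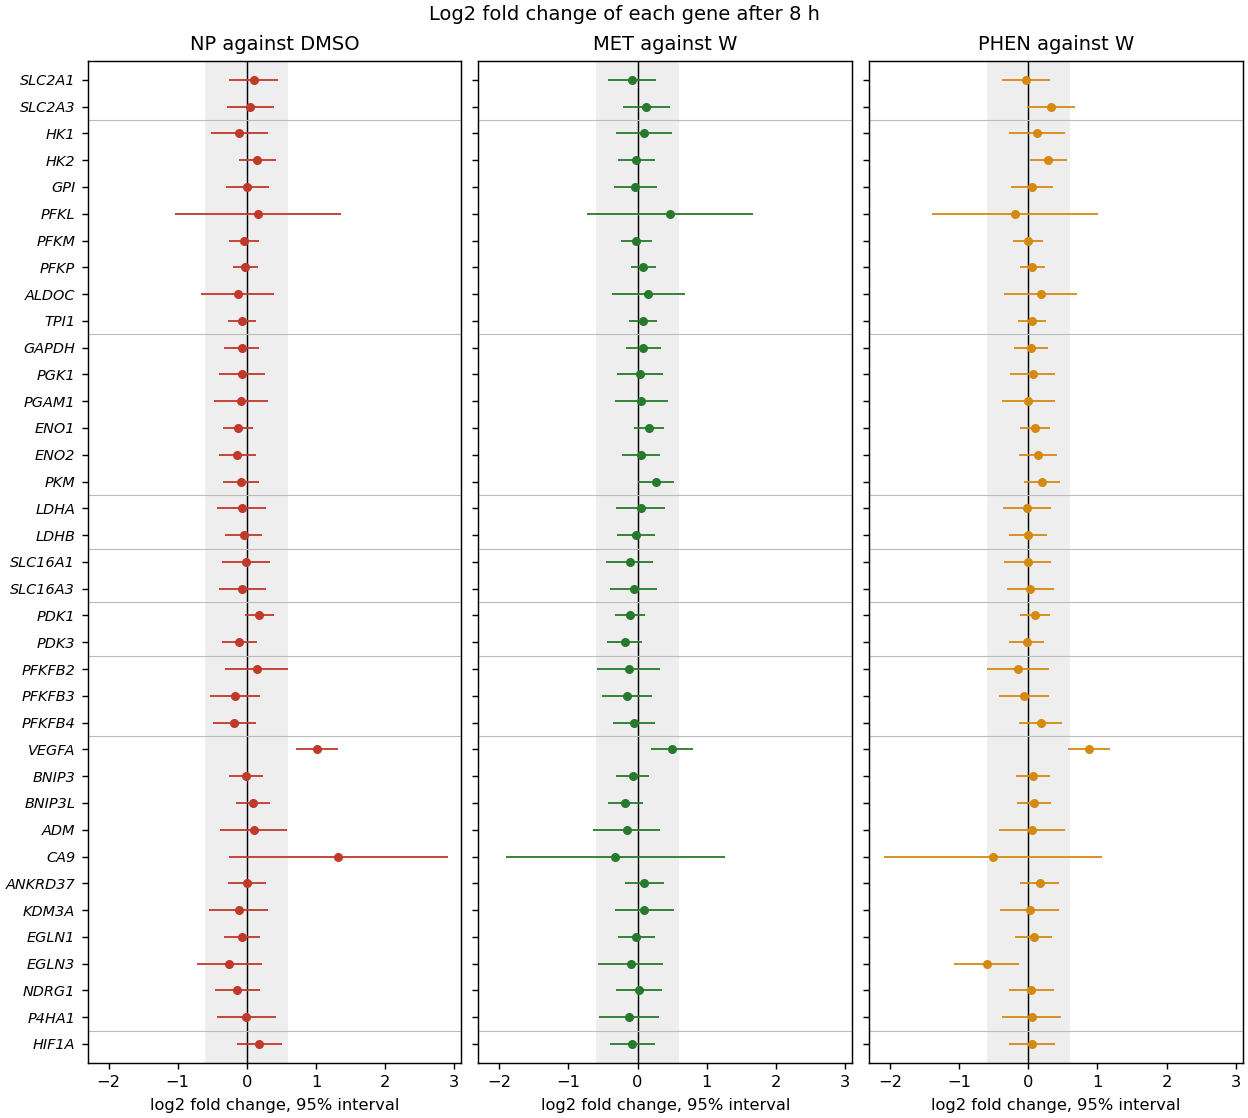
Log2 fold change (x axis) of the 37 genes tested (y axis) for NP against DMSO, MET against W and PHEN against W, with bars for the 95% interval from limma (3 arrays a group), horizontal lines between functional groups and a grey band for changes under 1.5-fold. Nearly all points sit close to 0 inside the band, VEGFA lies to the right in all 3 panels (1.01, 0.50 and 0.88), and CA9 and PFKL have the widest bars.

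VEGFA, the angiogenic growth factor, was the 1 member whose signal was higher than its vehicle in every pair of all 3 comparisons with no overlap of the arrays. HIF1 is known to drive it, and so is ATF4, the factor of the integrated stress response. Its level was 1.23, 1.26 and 0.81 on the DMSO arrays and 2.11, 2.33 and 1.89 on the NP arrays. Every NP array was above every DMSO array, and the pairs differed by 0.88, 1.07 and 1.08. The fold change was 1.01 (SE 0.14, 95% interval 0.71 to 1.31) on the log2 scale, about 2.01-fold, with a limma adjusted p of 0.0543, which just misses the threshold. It passed under 8 of 16 alternative settings. Among them were the 3 that model the slide or the replicate number within a vehicle set (limma adjusted p from 0.00241 to 0.0125). Those 3 called 49 to 62 of all features higher, in place of 10. Normexp background correction (0.0271) and restriction to features bright on all arrays (0.0183) were others. VEGFA did not pass with any replicate left out (0.252 to 1.00) or in a fit of these 6 arrays alone (0.671). In those fits 0 of all features passed in either direction, so they cannot set VEGFA apart from other features.

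Against water, VEGFA was at 2.10, 2.18 and 2.19 on the W arrays, 2.65, 2.68 and 2.64 on the MET arrays and 3.03, 2.93 and 3.14 on the PHEN arrays. The 3 groups did not overlap, and the within-group SD was at most 0.11. The difference was 0.50 (SE 0.14, adjusted p = 1.00) with MET and 0.88 (SE 0.14, adjusted p = 0.146) with PHEN. With PHEN it passed only in the 3 fits that model the slide or the replicate number within a vehicle set (limma adjusted p from 0.00854 to 0.0245). Those fits called 8 to 14 of all features higher, in place of 6. With MET it passed in none of the fits against water.

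A second VEGFA probe, with its own accession, gave the same direction in each comparison. Its fold change was 0.86 (SE 0.12) with NP, 0.42 (SE 0.12) with MET and 0.57 (SE 0.12) with PHEN on the log2 scale. On this probe the NP arrays at 2.04 ± 0.17 were above the DMSO arrays at 1.17 ± 0.19, and the MET arrays at 1.37 ± 0.24 and PHEN arrays at 1.53 ± 0.10 were above the W arrays at 0.95 ± 0.15 (log2 level, SD, n = 3). The probes parted in the comparison of vehicles. The brighter probe was lower in DMSO than in W by 1.05 (SE 0.14), whereas the dimmer probe was higher in DMSO by 0.22 (SE 0.12).

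**Figure D2:**
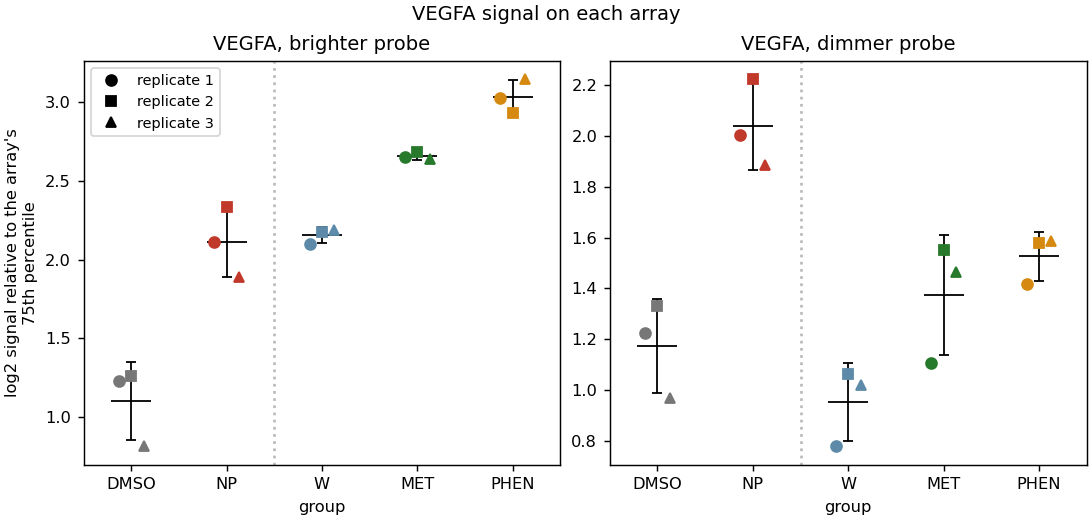
VEGFA level on each array (y axis, log2 signal relative to the array's 75th percentile) by group (x axis) for its brighter and dimmer probe, with symbols for the replicate number, bars for the mean and SD of 3 arrays and a dotted line between the sets of the 2 vehicles. Treated arrays sit above their own vehicle on both probes, and the DMSO arrays sit below the W arrays on the brighter probe only.

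Glucose enters these cells through carriers of the SLC2A family, of which SLC2A1 (GLUT1) is the classical HIF1 target. SLC2A1 differed from its vehicle by 0.10 with NP, -0.08 with MET and -0.03 with PHEN (log2, each with SE 0.16). SLC2A3 (GLUT3), a high-affinity carrier, was at -1.78, -1.71 and -1.83 on the W arrays and at -1.32, -1.45 and -1.55 on the PHEN arrays. These groups did not overlap, and the difference was 0.33 (SE 0.15, limma adjusted p = 1.00). With NP the SLC2A3 pairs ran both ways, at 0.29, -0.31 and 0.17, for a difference of 0.05 (SE 0.15). With MET the SLC2A3 difference was 0.13. A second SLC2A3 probe read 0.39 (SE 0.17, adjusted p = 1.00 over probes) with NP, 0.29 with MET and 0.24 with PHEN.

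Among the enzymes of the ATP-spending stage of glycolysis, HK2 had the clearest pattern. HK2 encodes the hexokinase that tumours often induce and that commits glucose to the cell. Its level was 3.35, 3.64 and 3.73 on the W arrays and 3.78, 3.93 and 3.88 on the PHEN arrays, a difference of 0.29 (SE 0.12, limma adjusted p = 1.00) with no overlap. In DMSO it was at 3.75, 3.68 and 3.54 and with NP at 3.85, 3.80 and 3.78, a difference of 0.15 (SE 0.12) that also had no overlap. With MET it differed by -0.02 (SE 0.12). HK1, the constitutive hexokinase, was within 0.13 of its vehicle in all 3 comparisons.

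PFKL, the liver-type phosphofructokinase, is the member that these arrays measured least well. It was at 3.82, 2.92 and 1.16 on the DMSO arrays and 3.80, 3.52 and 1.05 on the NP arrays, so that both arrays of replicate 3, which shared a slide, were far below the others. On the W arrays it was at 3.19, 2.52 and 2.52, on the MET arrays at 4.10, 2.75 and 2.78, and on the PHEN arrays at 2.58, 2.45 and 2.62. Its SE of 0.54 exceeds each of its fold changes. The other phosphofructokinases were far steadier: PFKP, the platelet type, differed by -0.02, 0.08 and 0.06 (SE 0.08) with NP, MET and PHEN, and PFKM, the muscle type, by at most 0.04 in size (SE 0.10). GPI, ALDOC and TPI1, which act before, at and just after the split into trioses, were within 0.18 of their vehicle in all 3 comparisons.

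The enzymes of the later stage, which return ATP and NADH, stayed near their vehicles as well. GAPDH differed by -0.07, 0.08 and 0.04 (SE 0.11) with NP, MET and PHEN, and PGK1, whose upstream bases are printed above, by -0.07, 0.04 and 0.07 (SE 0.15). PGAM1, the phosphoglycerate mutase, differed by -0.09, 0.06 and 0.00 (SE 0.17), and ENO2, the neuronal enolase, by -0.14, 0.05 and 0.14 (SE 0.12). ENO1, the ubiquitous enolase, was at 6.87, 6.73 and 6.56 on the DMSO arrays and 6.74, 6.72 and 6.34 on the NP arrays, a difference of -0.12 (SE 0.10) that was negative in all 3 pairs. It was at 7.41, 7.34 and 7.25 on the W arrays and 7.52, 7.51 and 7.48 on the MET arrays, a difference of 0.17 (SE 0.10) without overlap. For NP the 95% interval of ENO1 was -0.34 to 0.10, and for MET -0.05 to 0.39, so that neither reached 1.5-fold.

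PKM encodes the pyruvate kinase that makes pyruvate and ATP. It was at 7.21, 7.31 and 7.07 on the W arrays and 7.35, 7.55 and 7.51 on the MET arrays. Every MET array was above every W array, and the difference was 0.27 (SE 0.12, limma adjusted p = 1.00), the highest among the enzymes with MET apart from PFKL. With PHEN it was 0.20 (SE 0.12) and with NP -0.08 (SE 0.12). The lactate dehydrogenases were flat: LDHA differed by -0.08, 0.05 and -0.02 (SE 0.16) and LDHB by at most 0.05 in size (SE 0.12) with NP, MET and PHEN. A second LDHB probe read 0.40 (SE 0.22) with NP. The lactate carriers SLC16A1 (MCT1) and SLC16A3 (MCT4, the exporter that HIF1 induces) lay within 0.11 of their vehicle in all comparisons.

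Pyruvate dehydrogenase kinases phosphorylate pyruvate dehydrogenase and so hold pyruvate out of mitochondria. PDK1, the HIF1 target among them, was at 1.67, 1.73 and 1.74 on the DMSO arrays and 1.72, 1.90 and 2.07 on the NP arrays, a difference of 0.18 (SE 0.10), positive in all pairs but with overlapping groups. With MET the PDK1 difference was -0.11 (SE 0.10) and negative in all pairs. PDK3 was at 2.03, 2.15 and 2.40 on the W arrays and 1.84, 1.88 and 2.29 on the MET arrays, a difference of -0.19 (SE 0.11) with overlap. A second PDK3 probe read -0.01 with MET. Neither kinase passed the test.

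The PFKFB enzymes set the level of fructose 2,6-bisphosphate, the activator of phosphofructokinase. PFKFB4 was at 2.30, 2.75 and 2.38 on the DMSO arrays and 2.19, 2.63 and 2.06 on the NP arrays, a difference of -0.18 (SE 0.14). With PHEN, PFKFB4 was at 3.32, 3.38 and 3.44 against 3.13, 3.24 and 3.22 on the W arrays, a difference of 0.18 (SE 0.14) without overlap. PFKFB3, the isoform most tied to glycolytic drive in tumours, was at 3.85, 3.68 and 3.43 on the DMSO arrays and 3.63, 3.53 and 3.29 on the NP arrays. Its difference was -0.17 (SE 0.16) with NP and -0.16 (SE 0.16) with MET, from 3.17, 3.56 and 3.54 on the W arrays to 3.04, 3.33 and 3.44 on the MET arrays. A second PFKFB3 probe read 0.05 with NP and 0.24 with MET, so the direction was not the same on both probes. PFKFB2 was at 0.96, 0.92 and 0.99 on the W arrays and 0.91, 0.81 and 0.71 on the PHEN arrays, a difference of -0.15 (SE 0.20) without overlap.

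The HIF1 targets outside glycolysis did not share the pattern of VEGFA. BNIP3 and BNIP3L encode receptors for the removal of mitochondria by autophagy. BNIP3 differed by -0.02, -0.07 and 0.07 (SE 0.11) with NP, MET and PHEN. BNIP3L was at 1.69, 1.93 and 2.19 on the W arrays and 1.55, 1.87 and 1.86 on the MET arrays, a difference of -0.18 (SE 0.11) that its second probe did not share (0.10). NDRG1, a stress-response gene that hypoxia strongly induces, was at 3.47, 3.56 and 4.12 on the DMSO arrays and 3.31, 3.51 and 3.91 on the NP arrays, a difference of -0.14 (SE 0.15), and differed by at most 0.05 with the biguanides. The vasodilator peptide gene ADM, the ankyrin-repeat gene ANKRD37, the histone demethylase KDM3A, the prolyl hydroxylase EGLN1 and the collagen hydroxylase P4HA1 were each within 0.17 of their vehicle in all 3 comparisons.

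CA9, the membrane carbonic anhydrase used as a marker of hypoxia, had its value of 1.32 (SE 0.71) with NP from 1 pair. It was at -6.57, -5.84 and -4.18 on the DMSO arrays, none of them well above background, and at -2.55, -5.54 and -4.55 on the NP arrays, of which 1 was. The pairs were 4.03, 0.30 and -0.37, and without replicate 1 the difference was -0.03. No fold is given because the NP mean did not exceed the lowest signal that counts as above background. Against W at -3.16, -3.53 and -3.88, CA9 was at -3.70, -4.06 and -4.33 on the PHEN arrays, a difference of -0.51 (SE 0.71) with overlap. EGLN3 was at -3.31, -3.54 and -3.96 on the W arrays and -3.87, -4.20 and -4.56 on the PHEN arrays, a difference of -0.60 (SE 0.21, limma adjusted p = 1.00). Its groups overlapped, and 1 PHEN array was not well above background. The filter on dim probes kept EGLN3 through W and MET and CA9 through W and PHEN. For both genes it thus favoured a high level in W.

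HIF1A was at 5.16, 5.11 and 4.91 on the DMSO arrays and at 5.24, 5.28 and 5.20 on the NP arrays. All NP arrays were above all DMSO arrays, by 0.18 (SE 0.15, 95% interval -0.15 to 0.51) in the mean. A second, dimmer HIF1A probe of the same accession gave 0.51 (SE 0.27, adjusted p = 1.00 over all probes) with NP. With MET and PHEN the brighter probe differed by -0.08 and 0.05 (SE 0.15).

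Taken as lists, the enzymes and the other HIF1 targets both stayed close to the median of all features. With NP the median log2 fold change was -0.07 for the 16 enzymes, -0.01 for the 11 other HIF1 targets and -0.01 for all features. With MET it was 0.07, -0.07 and 0.00 in the same order, and with PHEN 0.06, 0.06 and -0.03. The pair medians of the enzymes with NP were -0.13, 0.03 and -0.09 and so spanned 0. With MET they were 0.05, 0.05 and 0.11, and those of the other targets were -0.06, -0.05 and -0.11. With MET the enzymes thus lay above 0 and the other HIF1 targets below 0 in each pair, but not without CA9 and EGLN3, the members that were not well above background on every array. Without them the pair medians of the other targets with MET were 0.02, -0.04 and -0.11 and their median was -0.02.

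By direction, 10 of 16 enzymes were higher in all 3 pairs with MET and 0 were lower in all 3, where 22.2% of all features were higher and 20.2% lower. With PHEN 8 of 16 were higher in all 3 pairs and 0 lower, where 12.2% and 14.8% of all features were. With NP the count was 1 higher and 4 lower, where 14.3% and 18.8% of all features were. These differences were small, with a median over the enzymes of at most 0.11 in any MET pair. The enzymes share brightness and the same pairs of arrays, so they are not separate observations. Groups did not overlap upward for 3 enzymes with MET (PFKP, ENO1 and PKM; 3.47% of all features), 1 with PHEN (HK2; 3.82%) and 1 with NP (HK2; 3.01%).

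**Figure D3:**
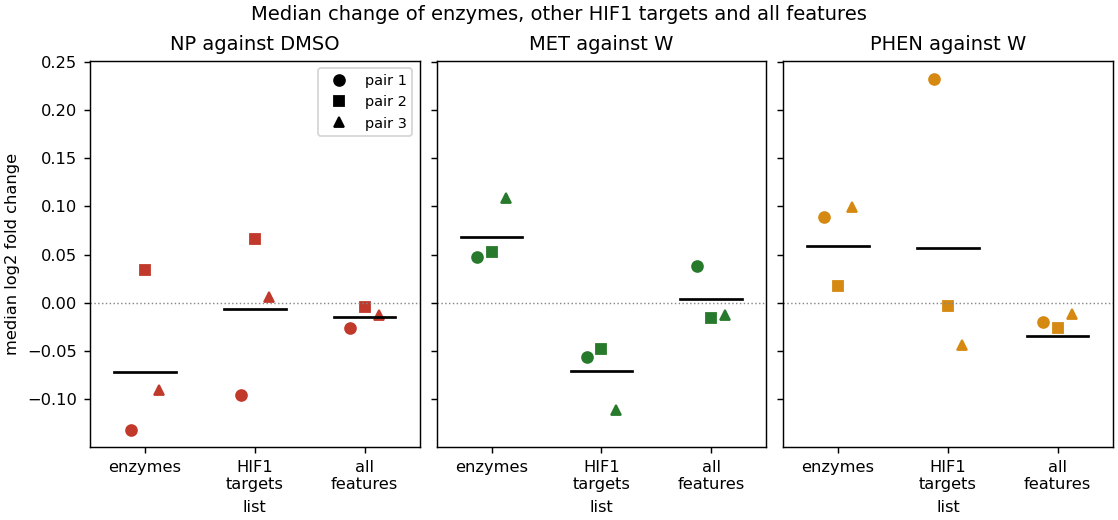
Median log2 fold change (y axis) of the 16 enzymes, the 11 non-glycolytic HIF1 targets and all 26825 features (x axis) for each comparison, with symbols for the 3 pairs and bars for the median of the fitted values. The pair medians lie between -0.13 and 0.23, and with MET the enzymes lie above 0 and the other HIF1 targets below 0 in all 3 pairs, which for pair 1 does not hold without CA9 and EGLN3 (0.02).

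The effects of the compounds were compared with each other as differences between their fold changes, which were given at different doses. None of the 37 genes differed past the threshold between NP and MET, between NP and PHEN or between PHEN and MET, and neither did any other feature. At an unadjusted limma p of at most 0.05 there were 1, 0 and 4 members, where 2.78%, 2.43% and 2.87% of all features were. For VEGFA the fold change was 0.51 greater with NP than with MET and 0.13 greater with NP than with PHEN, and its level was 0.37 higher with PHEN than with MET, all with an adjusted p of 1.00. The second VEGFA probe was 0.15 (SE 0.12) higher with PHEN than with MET. The other 3 members between PHEN and MET were HK2 and BNIP3L, which were higher with PHEN, and EGLN3, which was lower. EGLN3 had been kept by the filter through W and MET.

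More members differed between the vehicles than between any compound and its vehicle, and so did more of all features. Between DMSO and W, 3 of 37 members passed the threshold, all lower in DMSO, a share near the 7.78% of all features that were lower. Of the members 0 were higher (2.81% of all features), and the median over all features was -0.12. The 3 members were VEGFA on its brighter probe at -1.05 (SE 0.14, limma adjusted p = 0.00398), PFKFB4 at -0.72 (SE 0.14, 0.0102) and ENO1 at -0.61 (SE 0.10, 0.00579). HIF1A was higher in DMSO by 0.58 (SE 0.15, 0.0266) and PDK3 by 0.46 (SE 0.11, 0.0234), both under 1.5-fold. A second probe did not share the difference for VEGFA (0.22), HIF1A (-0.16, SE 0.27) or PDK3 (-0.09, SE 0.12), and ENO1 and PFKFB4 had 1 probe each. Second probes of PFKFB3 (-1.27, adjusted p = 0.00354 over probes) and PGAM1 (-0.68, 0.00365) were lower in DMSO past the threshold, where the probes used for these genes read 0.23 and -0.20. Vehicle and slide cannot be told apart, because no slide held arrays of both vehicles.

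**Figure D4:**
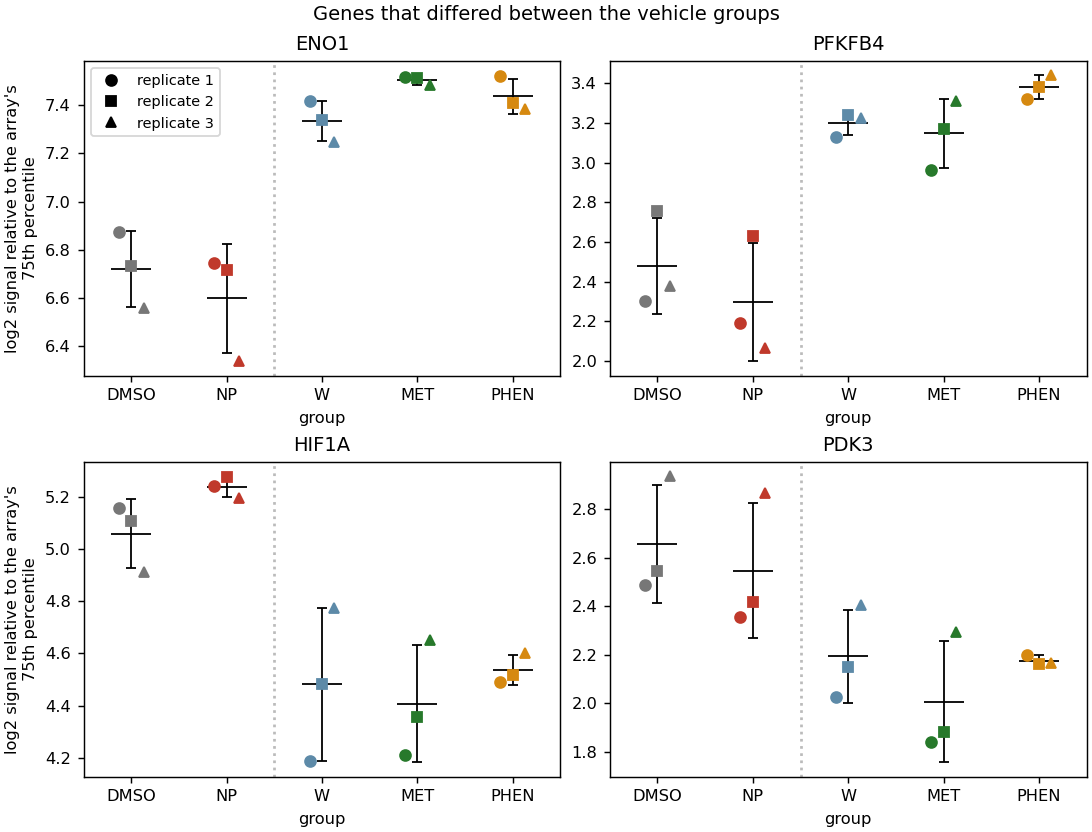
Level of ENO1, PFKFB4, HIF1A and PDK3 on each array (y axis, log2 signal relative to the array's 75th percentile) by group (x axis), with symbols for the replicate number, bars for the mean and SD of 3 arrays and a dotted line between the sets of the 2 vehicles. In each panel the means of the treated arrays lie nearer to their own vehicle than to the other set.

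The choice of comparator changed the counts, for the members and for all features alike. Against DMSO in place of W, 7 members passed with MET and 5 with PHEN, where 11.7% of all features rose and 5.31% fell with MET and 6.55% rose and 3.74% fell with PHEN and the median over all features was 0.14 with MET and 0.09 with PHEN. With both biguanides VEGFA (1.56 and 1.93), ENO1 (0.78 and 0.72), ALDOC (0.92 and 0.95) and PFKFB4 (0.67 and 0.90) were higher than in DMSO and PFKFB2 (-0.72 and -0.75) was lower, and with MET PDK3 (-0.65) and HIF1A (-0.65) were lower as well. Against W none of these passed. On the second VEGFA probe the values against DMSO were 0.20 (SE 0.12) and 0.35 (SE 0.12). Second probes of HIF1A and PDK3 did not share the falls with MET. They read 0.15 and -0.01 for MET against W and -0.16 and -0.09 for DMSO against W.

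Genes next to the pathway were read from further lists. None passed the threshold in any of the 3 comparisons among 12 other glycolytic genes, 10 of pyruvate entry into mitochondria, 7 of the pentose phosphate pathway, 6 of hexosamine synthesis, 8 regulators of HIF1 and 23 further HIF1 targets. OGT, the transferase that attaches the sugar made by the hexosamine pathway to proteins, was at 4.29, 4.16 and 4.52 on the DMSO arrays and 4.69, 4.68 and 5.12 on the NP arrays. All NP arrays were above all DMSO arrays, by 0.51 (SE 0.13, limma adjusted p = 0.547). With PHEN the OGT difference was 0.40 (SE 0.13, limma adjusted p = 1.00).

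The values furthest from 0 in the other lists were these, where reported. PDK4, a pyruvate dehydrogenase kinase, was -0.34 (SE 0.26) with NP, PDP1, its opposing phosphatase, -0.21 (SE 0.27) with MET, and DLAT, a subunit of the dehydrogenase, -0.14 (SE 0.14) with PHEN. In the pentose phosphate pathway these were PGD at -0.14 (SE 0.19) with NP and PGLS at 0.23 (SE 0.10) with PHEN. GNPNAT1 of the hexosamine pathway was -0.25 (SE 0.22) with MET. Among the regulators, CITED2, which competes with HIF1 for a coactivator, was 0.22 (SE 0.22) with NP, VHL, which marks HIF1A for degradation, -0.25 (SE 0.45) with MET, and HIF3A -0.39 (SE 0.29) with PHEN. Of the further HIF1 targets, BHLHE40, a transcriptional repressor, was 0.28 (SE 0.10) with PHEN. Among the other glycolytic genes PGAM2 was 0.23 (SE 0.16) with MET, and PKLR, the liver pyruvate kinase, was -0.51 (SE 0.44) with PHEN. PKLR was well above background on 2 NP arrays and no DMSO array, with pairs of 1.03, 2.13 and -0.18 (adjusted p = 1.00), and no fold is given.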

How the data were processed

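Per the labels, total RNA was amplified, labelled with Cy3 and hybridised to Agilent arrays. The deposited scanner files hold background-corrected intensity values per spot (Feature Extraction, version 10.7.3.1 in the file headers and 9.1 in the submitters' processing notes). The authors also deposited a table of normalized log2 values, which equalled the log2 intensity plus a constant per array within 0.01 for over 99% of values above its floor of 4 and was used as an alternative.

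Outlier spots were dropped, spots of a probe averaged and the array's 75th percentile subtracted. A probe was kept if it was well above background on all 3 arrays of a group (32913 of 58201), and a gene took its brightest kept probe. The RefSeq accession named 31104 of 33080 probes. limma 3.58.1 (R 4.3.3) fitted all 15 arrays with group and replicate number, and p-values were adjusted by Benjamini and Hochberg. Same-numbered arrays of a compound and its vehicle deviated together (r from 0.24 to 0.856 over features), and the number was taken as the pairing. The fit used a number term shared by both vehicle sets, although the deviations were compared only within a set. With the number taken within each vehicle set, VEGFA passed with NP (limma adjusted p = 0.0125) and with PHEN (0.0245). For NP and DMSO, replicates 1 and 2 lay on the same slide. Their r was 0.312 and 0.332 within a number and 0.289 and 0.245 across numbers. There the numbers were thus hardly told apart from the slide. The study's methods name a paired t-test, run as an alternative. Figures were drawn with matplotlib 3.10.9. The fit of NP against DMSO was tested on simulated data in which 200 of 26825 features were changed. It recovered 48% of those changed by 1 on the log2 scale and 77% of those changed by 2, with 8 false calls. The simulated noise was independent between arrays, without the shared deviations of the real arrays, so these figures hold for that setting only. The number of arrays limits the precision.

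All 38 members are named in the text. Values per array are given for the 3 furthest up and down in each comparison among genes well above background in both groups. From further lists, genes that passed and the value furthest from 0 are named, apart from some that are not reported here, and per-array values of other genes were chosen after they were seen. Members and lists were chosen with earlier results of these data known.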

Additional observations from a re-analysis of the deposited data

How the results depend on the processing

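The count of members past the threshold with NP was 1, VEGFA, in place of 0 under several settings. It was so under the slide term, the replicate number within each vehicle set and the slide as a random block. Over all features 58, 49 and 62 rose under these 3, in place of 10, and 5, 3 and 8 fell. The count was also 1 under normexp, quantile normalization, the authors' table, a filter to features bright on every array and the average over a gene's probes. There 26, 17, 12, 23 and 12 of all features rose, and 2 fell under the filter. The methods' t-test at an unadjusted p gave 1 as well. With PHEN the count was 1, again VEGFA, under the slide term, the number within each vehicle set and the random block. There 13, 8 and 14 of all features rose, in place of 6, and 3, 1 and 0 fell. It was 2, VEGFA and EGLN3, under the methods' t-test at an unadjusted p. After Benjamini-Hochberg adjustment that t-test gave 0 in each comparison, among the members and among all features. The share of all features at its unadjusted p was not counted. Without the replicate block the count was 0 in each comparison as with it, and VEGFA with NP had 1.01 (limma adjusted p = 0.0541). Over all features, 3 rose with NP without the block in place of 10, and with PHEN 0 rose in place of 6 and 0 fell in place of 1. The count was 0 with any replicate left out, as was the count over all features.

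With DMSO in place of water the count was 7 with MET and 5 with PHEN, the enzyme median 0.31 and 0.21, and the median of the other HIF1 targets 0.26 and 0.32. PFKFB4 then had 0.67 with MET in place of -0.05 and PDK1 -0.19 with PHEN in place of 0.10. With MET the median of the other HIF1 targets was 0.015 with normexp, -0.016 with features bright on every array and -0.016 with each gene's dimmest kept probe, in place of -0.07. That last setting, chosen after seeing the data, turned PFKFB3 with NP to 0.048 and BNIP3L with MET to 0.10. CA9 with NP ran from -0.032 to 2.16 with 1 replicate left out. The causes of these changes were not tested. Apart from DMSO, the alternatives gave 590 member values for each comparison, of which 22, 19 and 24 with NP, MET and PHEN changed sign. Of these 20, 18 and 24 belonged to values smaller than their SE. The enzyme median kept its sign in all of these. gMeanSignal was not used, and normexp took the median signals.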
